A study of Arabidopsis thaliana with 36 samples.

Results

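ARPN and AT2G45180 are 2 Arabidopsis genes whose transcript signal placed every array of the plants with an active FRI and FLC pair on one side of every other array, on each of the 4 days sampled. ARPN (probe set 267472_at, locus AT2G02850) lay above, and AT2G45180 (probe set 266123_at) lay below. The members were chosen by that separation, among 14912 probe sets tested of the 22746 on the array that are not controls, and both passed the filter on low signals. The differences between these plants and the others are therefore given as a description, without a test. Tests are given for changes over days within a line, and for the difference between the other lines. The choice was not made on these contrasts, but it used the same arrays, so the tests are not fully independent of it.

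The study profiled total RNA from the apical region of soil-grown Arabidopsis thaliana on 36 ATH1 arrays, which carry 1 or more sets of short probes per gene. Plants of 3 lines grew at 23 degrees Celsius in short days and were then moved to long days. Samples were taken after 0, 3, 5 and 7 long days, with 3 arrays for each line and day and 12 arrays per line. The line called FRI here carries the FRI allele of the Sf-2 accession in a Col background and has a functional FLC. The line FRI flc-3 carries that same FRI allele together with the flc-3 allele, a fast-neutron mutation of FLC, in Col-0. The line flc-3 carries the flc-3 allele in Col-0 without the Sf-2 FRI allele. No group was kept in short days beside the others, so the effect of long days and that of added age cannot be told apart. The developmental stage in the labels is vegetative for all FRI arrays and for all lines at day 0. It is the transition to flowering for FRI flc-3 from day 3 on and for flc-3 at days 3 and 5, and for 1 of the 3 flc-3 arrays of day 7. From day 3 to day 5, stage and presence of a functional FLC cannot be told apart.

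FLC is a MADS-box transcription factor that represses flowering, and FRI raises the level of the FLC transcript. Plants with an active FRI and FLC pair flower late unless they pass through a cold period. ARPN encodes plantacyanin, a small secreted blue copper protein of the phytocyanin family that is known from the reproductive tissues of the flower, and its transcript is a known target of miR408, a microRNA of copper homeostasis. AT2G45180 encodes a protein of the family that shares a cysteine motif with lipid transfer proteins, protease inhibitors and seed storage albumins. Both loci lie on chromosome 2 with 5652 annotated genes between them in the TAIR10.1 annotation, whereas FRI lies on chromosome 4 and FLC on chromosome 5. The annotation table pairs no probe set with FLC or FRI by name, so the level of the targeted gene is not reported here and the line labels were not checked against it.

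Signals are the authors' MAS5 intensities, on a linear scale, and the trimmed means of the arrays lay within a narrow range. The median signal of an array lay between 40.4 and 43.1. Both members were bright, with mean signals at the 95.6th percentile (ARPN) and the 95.2nd percentile (AT2G45180) of the 22746 probe sets that are not controls. The lowest correlation between arrays of a group was 0.979, between replicates 3 and 2 of FRI flc-3 at day 0, and no array was left out. The ratio of 3' to 5' probe signal for GAPDH, a measure of RNA integrity, was 0.779 to 1.31 in FRI, 0.944 to 1.25 in FRI flc-3, with 0.938 to 1.34 in the flc-3 line, so the lines overlapped. For actin it was 6.08 to 10.1, 5.12 to 12.2 and 4.63 to 12.5, and the lines overlapped again. In whole apical tissue, fewer cells of a type and less RNA per cell cannot be told apart. The labels do not say that replicates came from separate pools of plants, so p-values measure only the spread between these samples.

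The ARPN signal in FRI was 714.1, 656.4 and 706.0 at day 0, and 713.2, 697.3 and 740.7 at day 3. It was 693.4, 761.8 and 818.3 at day 5, and 702.4, 744.5 and 715.6 at day 7. The FRI arrays thus stayed at one level, and arrays of neighbouring days overlapped. In FRI flc-3 the ARPN signal was 618.6, 654.2 and 564.2 at day 0, 528.3, 474.1 and 504.0 at day 3, 463.1, 488.3 and 466.0 at day 5, and 573.3, 528.5 and 604.7 at day 7. In flc-3 it was 598.7, 534.6 and 542.2 at day 0, 595.3, 548.5 and 549.6 at day 3, 400.2, 391.6 and 386.0 at day 5, and 418.4, 422.8 and 450.8 at day 7. All 24 of these arrays were below the lowest FRI array, and the lowest of them were the flc-3 arrays of day 5.

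The separation of ARPN was narrow at day 0 and wider afterwards. At day 0 the lowest FRI array, replicate 2 at 656.4, and the highest other array, FRI flc-3 replicate 2 at 654.2, were 2.1 signal units apart, or 0.005 on the log2 scale. The gap between the nearest arrays was 102.1 units at day 3, 205.1 units at day 5 and 97.7 units at day 7. On any single day such separation was common among probe sets: FRI arrays lay above all others for 2.41% of tested probe sets at day 0, 2.85% at day 3, 8.77% at day 5 and 12.5% at day 7. The gap at day 0 rests on the scaling of the arrays: when every array was scaled to a common 75th percentile, the gap was -0.02 on the log2 scale and ARPN no longer separated the lines. Without replicate 2 of FRI at day 0 the smallest gap was 0.084, and without replicate 2 of FRI flc-3 at day 0 it was 0.085.

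The AT2G45180 signal in FRI was 395.3, 396.0 and 400.0 at day 0, 336.2, 350.8 and 327.9 at day 3, 263.8, 270.3 and 257.8 at day 5, and 217.3, 228.4 and 244.3 at day 7. Every FRI array of a later day was below every FRI array of the day before it. The share of all tested probe sets with such steps between neighbouring days was not counted. Between days 0 and 7 alone, FRI arrays did not overlap for 39.4% of tested probe sets. In FRI flc-3 the AT2G45180 signal was 641.4, 616.0 and 629.6 at day 0, 502.5, 487.3 and 460.6 at day 3, 632.4, 576.9 and 616.2 at day 5, and 963.4, 878.0 and 952.1 at day 7. In flc-3 it was 776.9, 759.4 and 706.9 at day 0, 523.0, 453.3 and 489.6 at day 3, 512.6, 602.6 and 539.6 at day 5, and 755.4, 750.8 and 785.0 at day 7. Both lines with the flc-3 allele had their lowest mean at day 3 and their highest at day 7.

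For AT2G45180 the nearest arrays over all days were FRI day 0 replicate 3 at 400.0 and flc-3 day 3 replicate 2 at 453.3, which are 53.3 units or 0.18 on the log2 scale apart. Within a day the gap was 216.1 units at day 0, 102.5 at day 3, 242.3 at day 5 and 506.5 at day 7. FRI arrays lay below all others for 1.67% of tested probe sets at day 0, 3.58% at day 3, 8.69% at day 5 and 12.4% at day 7. This gene had its widest gap at day 7, whereas ARPN had its widest at day 5.

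**Figure D1:**
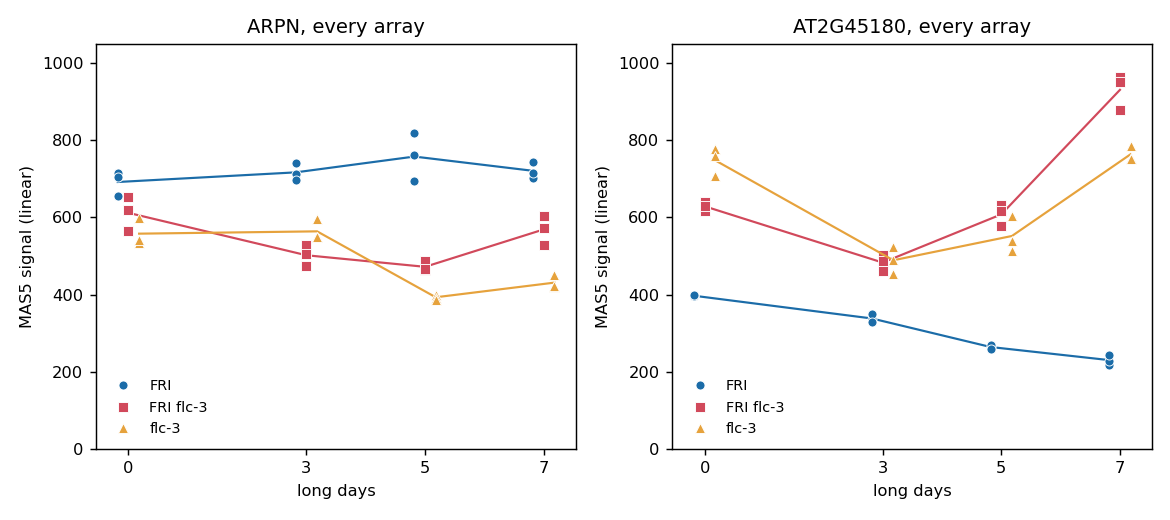
Signal of ARPN and of AT2G45180 (deposited MAS5 signal, linear scale) against the number of long days, with 1 point per array and lines through the mean of 3 arrays in FRI, FRI flc-3 and flc-3. ARPN in FRI stays between 656.4 and 818.3 above all other arrays, and AT2G45180 in FRI falls from about 397 to 230.0 below all other arrays.

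Across the 12 groups of line and day, the 4 FRI groups had the highest mean ARPN signals, at 758 ± 62.5 (SD, n = 3) at day 5, 721 ± 21.5 at day 7, 717 ± 21.9 at day 3 and 692 ± 31.3 at day 0. Each FRI group overlapped the next FRI group in this order, and FRI at day 0 did not overlap the group after it. Next came FRI flc-3 at day 0 (612 ± 45.4) and day 7 (569 ± 38.3), and flc-3 at day 3 (564 ± 26.7). Each of these overlapped the next, down to flc-3 at day 0 (558 ± 35.0), which did not overlap the group after it. FRI flc-3 at day 3 (502 ± 27.2) and day 5 (472 ± 13.8) overlapped each other, and flc-3 at day 7 (431 ± 17.6) and at day 5 (393 ± 7.16) closed the order without overlap. The ARPN range within a line was 1.25-fold between the lowest and highest array in FRI, 1.41-fold in FRI flc-3, with 1.55-fold in the flc-3 line.

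The order of groups for AT2G45180 began with FRI flc-3 at day 7 (931 ± 46.4, SD, n = 3), which overlapped no other group. It was followed by flc-3 at day 7 (764 ± 18.6) and day 0 (748 ± 36.4), which overlapped each other. Then came FRI flc-3 at day 0 (629 ± 12.7) and day 5 (608 ± 28.5), and flc-3 at day 5 (552 ± 46.2) and day 3 (489 ± 34.8). Each of these overlapped the next, down to FRI flc-3 at day 3 (483 ± 21.2). FRI flc-3 at day 3 did not overlap the group after it, FRI at day 0. The 4 FRI groups came last and none overlapped its neighbour, with 397 ± 2.51 at day 0, 338 ± 11.6 at day 3, 264 ± 6.24 at day 5 and 230.0 ± 13.5 at day 7. AT2G45180 varied 1.84-fold between the lowest and highest array in FRI, 2.09-fold in FRI flc-3, with 1.73-fold in the flc-3 line.

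Only 5 of the 14912 tested probe sets, or 0.0335%, separated the 12 FRI arrays from the other 24, with 2 higher in FRI (0.0134%) and 3 lower (0.0201%). The members are those among the 5 that the annotation table pairs with 1 gene. The other probe set higher in FRI was 250476_at, whose signal was 650.1 at the lowest, 786.3 at the median and 933.1 at the highest of the FRI arrays, against 10.4, 32.1 and 64.8 on the others. The further probe sets lower in FRI were 253579_at, with 49.9 to 77.8 in FRI and 82.9 to 179.2 elsewhere, and 264339_at, with 2.0 to 17.5 in FRI and 17.8 to 75.8 elsewhere. These probe sets have no name in the table and are given by their identifiers. The log2 gap of 3.295 of 250476_at stood far above those of ARPN (0.005) and AT2G45180 (0.18).

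Named genes just outside the separation had arrays of FRI and of the other lines that overlapped. On the higher side these were AT3G14595, with a gap of -0.031 on the log2 scale and 149.1 to 202.2 in FRI against 100.3 to 152.4 elsewhere, AT1G49310 with a gap of -0.057, and TBL36, a trichome birefringence-like gene, with a gap of -0.07. On the lower side they were BUB3.1, a spindle checkpoint gene, with a gap of -0.081 and 245.4 to 288.3 in FRI against 272.5 to 342.1 elsewhere, AT1G76550 with a gap of -0.088, and AT4G23820 with a gap of -0.099. A negative gap means that the nearest arrays overlapped by that amount. ARPN lay only just inside the border, closer to it than AT3G14595 lay outside it.

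Setting FRI against FRI flc-3 holds the FRI allele constant and asks what goes with a functional FLC. As a description on the log2 scale of signal plus an offset of 1.62, averaged over the 4 days, ARPN was 0.43 ± 0.033 (SE, 12 arrays against 12) higher in FRI, which is 1.35-fold. AT2G45180 was 2.14-fold lower in FRI, a log2 difference of -1.10 ± 0.031. In this comparison 21.2% of all tested probe sets were called at an adjusted p under 0.05. The members were chosen for this contrast, and no reading is drawn from that share.

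The size of the ARPN difference depended on the day. FRI minus FRI flc-3 was 0.18 at day 0, 0.51 at day 3, 0.68 at day 5 and 0.34 at day 7 on the log2 scale, each with an SE of 0.065 and 3 arrays against 3. For AT2G45180 the same difference was -0.66 at day 0, -0.51 at day 3, -1.20 at day 5 and -2.01 at day 7, each with an SE of 0.062. By day 7 the AT2G45180 signal was 4.03-fold lower in FRI than in FRI flc-3, after being 1.58-fold lower at day 0. ARPN at day 7, in contrast, differed 1.27-fold.

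FRI minus flc-3, which changes both the FRI allele and FLC, gave values of the same sign on every day. ARPN was 0.31 higher at day 0, 0.34 at day 3, 0.94 at day 5 and 0.74 at day 7 on the log2 scale, with a mean of 0.58 ± 0.033 (SE). AT2G45180 differed by -0.91, -0.53, -1.06 and -1.73 at days 0, 3, 5 and 7, with a mean of -1.05 ± 0.031. Of all tested probe sets 26.8% were called in the mean over days. Both line comparisons share the FRI arrays, so they are not independent of each other.

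**Figure D2:**
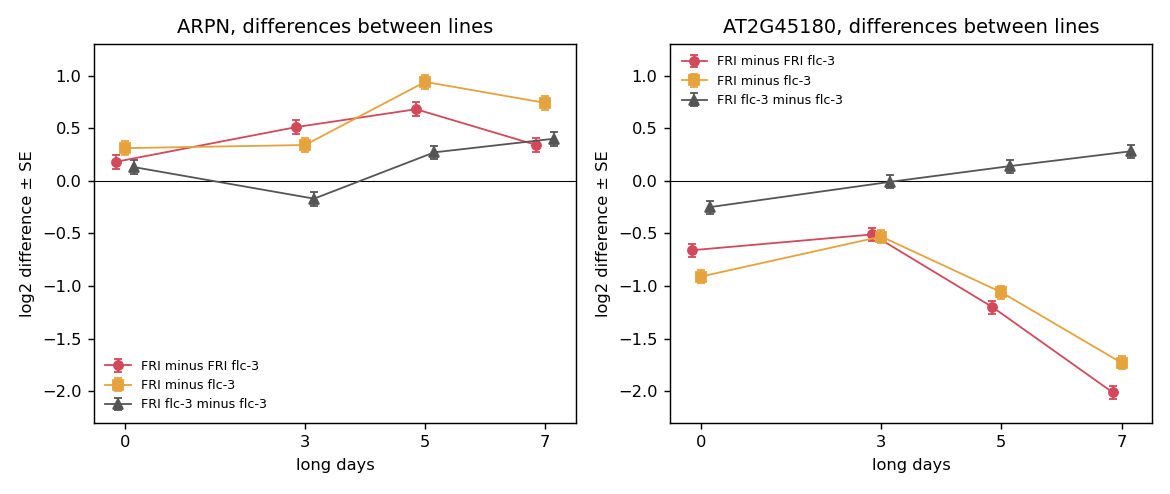
Differences between lines in log2 signal for ARPN and AT2G45180 at 0, 3, 5 and 7 long days, with bars for the standard error of the fit and 3 arrays per line and day. FRI minus FRI flc-3 and FRI minus flc-3 lie above 0 for ARPN and below 0 for AT2G45180 on every day, and FRI flc-3 minus flc-3 lies on both sides of 0, from -0.17 to 0.40 for ARPN and from -0.25 to 0.28 for AT2G45180.

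The change over days within a line was tested with limma against the day 0 arrays of that line, with Benjamini-Hochberg adjustment over all 14912 probe sets. Each line's contrasts share its day 0 arrays. In FRI, ARPN passed the test on none of the days: the log2 change from day 0 was 0.05 at day 3 (limma adjusted p = 0.70), 0.13 at day 5 (adjusted p = 0.15) and 0.06 at day 7 (adjusted p = 0.57), each with an SE of 0.065. The FRI arrays of each later day overlapped those of day 0. The shares of all tested probe sets called in FRI were 13.3% at day 3, 28.9% at day 5 and 26.0% at day 7. The call at day 5 turned on replicate 1 of FRI at day 5, without which the change was 0.19 with a limma adjusted p of 0.046.

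AT2G45180 fell in FRI on all 3 later days. The log2 change was -0.23 at day 3 (limma adjusted p = 0.0093), -0.59 at day 5 (adjusted p = 3.6e-09) and -0.79 at day 7 (adjusted p = 4.7e-12), each with an SE of 0.062. Its FRI arrays of each later day all lay below those of day 0, and at day 7 the arrays did not overlap those of day 0 for 39.4% of tested probe sets. The signal at day 7 was 1.72-fold lower than at day 0. Between these days in FRI, RCA, PRK and LHCB4.1, markers of photosynthetic leaf, also fell, with changes of -0.55, -0.29 and -0.29. FD, a shoot apex marker, rose by 0.67 (limma adjusted p = 0.0009), while LAS (0.25, adjusted p = 0.31) and the flower marker UFO (0.16, adjusted p = 0.82) did not pass.

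In FRI flc-3, ARPN fell at days 3 and 5 and did not pass the test at day 7, when its arrays overlapped those of day 0. Its log2 change was -0.28 at day 3 (limma adjusted p = 0.0019), -0.37 at day 5 (adjusted p = 3.1e-05) and -0.11 at day 7 (adjusted p = 0.21). Called probe sets made up 16.7%, 30.8% and 41.0% of those tested at days 3, 5 and 7. AT2G45180 in the same line fell at day 3, with a log2 change of -0.38 (limma adjusted p = 2.2e-05), did not pass at day 5 (-0.05, adjusted p = 0.60) and rose at day 7 by 0.56 (adjusted p = 2.8e-09), which is 1.48-fold. Over the same days in FRI flc-3, the flower marker UFO rose by 2.06 (adjusted p = 8.4e-05) and the shoot apex marker FD by 1.54 (adjusted p = 2e-10), while LAS did not pass (0.13, adjusted p = 0.58). UFO was dim, with mean signals of 2.52 at day 0 and 15.8 at day 7, so the size of its change depends on the offset. The photosynthetic leaf markers RCA, PRK and LHCB4.1 fell, with changes of -0.72, -0.42 and -0.48, and the part of these markers in the day 7 changes of ARPN and AT2G45180 was not tested. All 3 day 7 arrays of AT2G45180 lay above all 3 day 0 arrays, and for 45.2% of tested probe sets the arrays of these days did not overlap.

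In flc-3, ARPN did not pass at day 3 (0.02, limma adjusted p = 0.90) and fell at day 5 (-0.50 on the log2 scale, adjusted p = 1.1e-07) and at day 7 (-0.37, adjusted p = 1.5e-05). AT2G45180 fell at day 3 (-0.61, limma adjusted p = 1.9e-09) and at day 5 (-0.44, adjusted p = 5.2e-07), and did not pass at day 7 (0.03, adjusted p = 0.71), when its arrays overlapped those of day 0. The called shares of all tested probe sets in flc-3 were 23.4% at day 3, 42.6% at day 5 and 46.2% at day 7. At day 7 in flc-3, UFO rose by 3.16 and FD by 1.41, LAS did not pass (0.19, adjusted p = 0.39), and RCA, PRK and LHCB4.1 fell, with changes of -0.75, -0.46 and -0.77. UFO was dim in flc-3, with mean signals of 1.34 at day 0 and 24.7 at day 7, so the size of its change depends on the offset. Of the 3 flc-3 arrays of day 7, the 1 labelled as in transition had an AT2G45180 signal of 755.4, between the 750.8 and 785.0 of those labelled vegetative. Its ARPN signal of 418.4 was the lowest of the 3, beside 422.8 and 450.8.

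**Figure D3:**
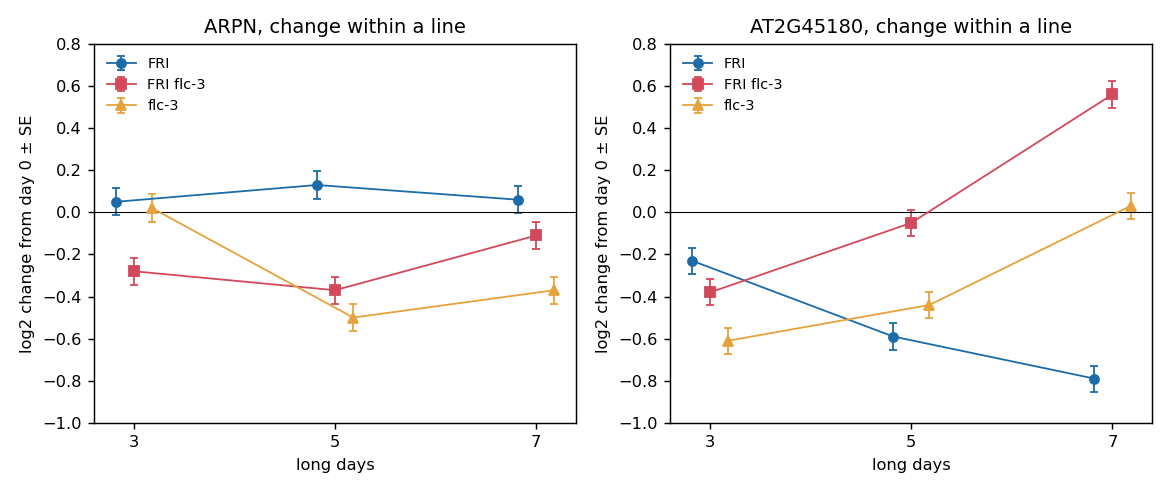
Change in log2 signal from day 0 for ARPN and AT2G45180 in FRI, FRI flc-3 and flc-3 at 3, 5 and 7 long days, with bars for the standard error of the fit and 3 arrays per group. AT2G45180 in FRI reaches -0.79 at day 7 while FRI flc-3 reaches 0.56, and ARPN in FRI stays between 0.05 and 0.13.

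Setting FRI flc-3 against flc-3 asks what goes with the Sf-2 FRI allele where FLC is mutant, and both lines lie among the 24 arrays that the choice of members put together. As a mean over days, ARPN was higher in FRI flc-3 by 0.16 ± 0.033 on the log2 scale (SE, 12 arrays against 12, limma adjusted p = 0.0025), which is 1.11-fold, in a comparison where 4.24% of tested probe sets were called. AT2G45180 differed by 0.04 ± 0.031 and did not pass (limma adjusted p = 0.52). Its mean over days joined differences of opposite sign.

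Day by day, ARPN was higher in FRI flc-3 at day 5 by 0.27 (limma adjusted p = 0.014, 4.64% of probe sets called) and at day 7 by 0.40 (adjusted p = 0.00019, 3.90% called). It did not pass at day 0 (0.13, adjusted p = 0.34, 1.90% called) or at day 3 (-0.17, adjusted p = 0.38, 0.530% called). The ARPN call at day 5 was lost without replicate 2 of FRI flc-3 (0.24, limma adjusted p = 0.066), without replicate 2 of flc-3 (0.26, adjusted p = 0.056) and without replicate 3 of flc-3 (0.25, adjusted p = 0.059). At day 7, the lowest FRI flc-3 array had 528.5 units and the highest flc-3 array had 450.8. The share of tested probe sets whose arrays did not overlap in that comparison was not counted.

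AT2G45180 in FRI flc-3 was below flc-3 at day 0, with a log2 difference of -0.25 (limma adjusted p = 0.029), and above it at day 7, by 0.28 (adjusted p = 0.0056). Days 3 and 5 did not pass, at -0.01 (adjusted p = 0.97) and 0.14 (adjusted p = 0.18). The day 0 call was lost without any of 4 arrays in turn: replicate 2 (-0.23, limma adjusted p = 0.083) or replicate 3 (-0.25, adjusted p = 0.081) of FRI flc-3, and replicate 1 (-0.22, adjusted p = 0.11) or replicate 2 (-0.24, adjusted p = 0.099) of flc-3. It was also lost with array weights (adjusted p = 0.08) and in a fit to only the groups compared (adjusted p = 0.28), and the latter also ended the day 7 call (adjusted p = 0.081).

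The day 7 response of AT2G45180 differed between the lines with mutant FLC. The response of FRI flc-3 exceeded that of flc-3 by 0.53 ± 0.088 on the log2 scale (SE, limma adjusted p = 0.00087), in a contrast where 2.84% of tested probe sets were called. For ARPN the same contrast gave 0.27 ± 0.093 (limma adjusted p = 0.11). Against FRI, as a description, the day 7 response of AT2G45180 in FRI minus that in FRI flc-3 was -1.35 ± 0.088, and minus that in flc-3 it was -0.82. For ARPN these values were 0.16 and 0.43.

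The members varied together in no single way. Across the 36 arrays the Pearson correlation of their log2 signals was -0.65, over lines that stand apart in both genes by choice. Within a line of 12 arrays it was -0.42 in FRI, 0.43 in FRI flc-3, with -0.05 in the flc-3 line. Arrays of a group share their day and line, so these values are descriptions. With the unnamed probe set 250476_at, AT2G45180 correlated at -0.95 within FRI, -0.63 within FRI flc-3 and -0.31 within flc-3, and ARPN at 0.36, 0.30 and 0.67. In FRI the mean signal of 250476_at was 667 at day 0, 708 at day 3, 854 at day 5 and 902 at day 7, while that of AT2G45180 went from 397 to 230.0. In the other lines 250476_at went from 61.4 at day 0 to 26.4 at day 7 (FRI flc-3) and from 38.7 to 13.4 (flc-3).

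The named genes whose log2 signal over the 36 arrays was most like ARPN were AT2G44060, AT3G57780, AT2G31110, scpl35 and AT1G68470, with Pearson correlations from 0.82 down to 0.75. AT2G44060, a late embryogenesis abundant protein gene, had mean signals of 916 in FRI, 828 in FRI flc-3, with 813 in the flc-3 line, and scpl35, a serine carboxypeptidase-like gene, had 474, 308 and 286. Both were higher in FRI, as ARPN was, which the choice of ARPN and of genes like it favours. With each line's mean removed, the correlation with ARPN was 0.60 for AT2G44060 and 0.59 for scpl35. These values ranked only 99th and 112th among the other tested probe sets. Among probe sets without a name, 250476_at (0.86) and 252827_at (0.78) were most alike. Of probe sets with 1 gene, least alike were AT5G02370 (-0.78), AT5G15570 (-0.77) and AT3G27330 (-0.77).

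Most like AT2G45180 were AT1G19450 (0.90), AT2G34510 (0.85), AT2G21130 (0.84), AT5G02940 (0.84) and AT4G18970 (0.83). AT1G19450, a predicted sugar transporter, had mean signals of 113 in FRI, 169 in FRI flc-3, with 169.9 in the flc-3 line. With each line's mean removed, the correlation with AT2G45180 was 0.82 for AT1G19450, 0.80 for AT5G02940 and 0.86 for AT4G18970. It was lower for AT2G34510 (0.60) and AT2G21130 (0.62). The course over days remains in these values. The unnamed probe sets most alike were 255428_at (0.88) and 260637_at (0.86). Of probe sets with 1 gene, least like AT2G45180 were AT5G19875 (-0.89), AT5G11930 (-0.89) and AT3G59270 (-0.86). AT5G19875 had mean signals of 67.7 in FRI, 34.1 in FRI flc-3, with 35.6 in the flc-3 line. Such line differences are favoured by picking genes like or unlike AT2G45180, so they are descriptions.

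Of 38 listed relatives of ARPN in the phytocyanin family, the annotation table pairs 8 with a probe set of their own, and 4 were tested. FRI minus FRI flc-3 as a mean over days was called higher for 2 of them, as ARPN lay, and lower for 1, where 21.2% of all tested probe sets were called. Their median was 0.12 on the log2 scale against 0.0 over all tested probe sets. AT3G27200 was higher in FRI by 0.72 ± 0.088 (SE, limma adjusted p = 5e-08), with mean signals of 69.3 and 46.1, and AT1G72230 by 0.29 ± 0.06 (adjusted p = 0.0004). AT1G22480 was lower by a log2 difference of -0.51 (adjusted p = 0.0033), with mean signals of 19.3 and 30.3. AT2G31050 did not pass (-0.04, adjusted p = 0.85). In FRI flc-3 minus flc-3, where 4.24% of all tested probe sets were called, none of the 4 passed.

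At day 7 against day 0, 3 of the 4 tested phytocyanin genes were called in every line, where 26.0% (FRI), 41.0% (FRI flc-3) and 46.2% (flc-3) of all tested probe sets were called. AT3G27200 fell in each, with log2 changes of -0.85 in FRI (limma adjusted p = 0.00034), -1.92 in FRI flc-3 (adjusted p = 3.9e-11) and -1.24 in flc-3 (adjusted p = 3.8e-07). AT1G72230 fell (-0.35, -0.83 and -0.91), and AT1G22480 rose by 1.32, 2.15 and 2.16. The latter started from mean signals of 8.27 to 9.08, under the 40th percentile of the arrays, and at an offset of 16 its log2 changes were 0.66, 1.28 and 1.21. ARPN itself had changes of 0.06, -0.11 and -0.37. Medians of the list at day 7 were -0.16, -0.54 and -0.71, against 0.03, 0.0 and 0.03 over all tested probe sets.

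Of 26 listed copper proteins, copper transporters and related genes, the annotation table pairs only 1 with a probe set of its own. That gene, CCS, the copper chaperone of superoxide dismutase, was tested. It did not pass in FRI minus FRI flc-3 (0.13, limma adjusted p = 0.18) or in FRI flc-3 minus flc-3 (-0.02, adjusted p = 0.91). At day 7 it fell in flc-3, with a log2 change of -0.33 (limma adjusted p = 0.042). That call was lost without the filter, without the intensity trend and in a fit to only the groups compared.

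Of the 27 listed relatives of AT2G45180, lipid transfer and hybrid proline-rich proteins, the annotation table pairs 11 with a probe set of their own, and 7 were tested. FRI minus FRI flc-3 called 1 higher and 1 lower, where 21.2% of all tested probe sets were called, with a median of -0.02 against 0.0 over all tested probe sets. AT4G22490 was higher in FRI by 0.59 ± 0.034 (SE, limma adjusted p = 5.4e-16), with mean signals of 2978 and 2093, opposite in sign to AT2G45180. AT2G10940 was lower by a log2 difference of -0.22 ± 0.065 (adjusted p = 0.013), with 869 and 993. In FRI flc-3 minus flc-3, AT4G22490 was the only call among the 7, at -0.25 (adjusted p = 5e-06), where 4.24% of all tested probe sets were called.

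At day 7, AT1G62500 rose in FRI by 0.64 (limma adjusted p = 0.0095), in FRI flc-3 by 0.77 (adjusted p = 0.001) and in flc-3 by 0.75 (adjusted p = 0.0012). AT4G22490 had a change of -0.04 in FRI (adjusted p = 0.75) and fell in FRI flc-3 (-1.33, adjusted p = 9.4e-18) and in flc-3 (-0.90, adjusted p = 3.4e-13). Over the 7 tested relatives, 1 rose and 2 fell in FRI, 3 rose and 1 fell in FRI flc-3, and 1 rose and 3 fell in flc-3. The shares of all tested probe sets called in these contrasts were 26.0%, 41.0% and 46.2%. Those that fell in FRI, as AT2G45180 did, were AT2G10940 (-0.77, adjusted p = 2.2e-05) and AT4G12490 (-1.37, adjusted p = 0.0016), which is dim and had -0.82 at an offset of 16.

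Markers of the cell types an apical sample can hold were low in coverage. Of 10 shoot apex markers 2 were tested, LAS and FD, and their summed signal was 51.5 to 92.5 in FRI, 44.8 to 129 in FRI flc-3, with 53.6 to 135 in the flc-3 line. Of 7 flower markers 1 was tested, UFO, at 1.05 to 4.57 in FRI, 1.8 to 20.3 in FRI flc-3, with 1.06 to 25.6 in the flc-3 line. Of 9 photosynthetic leaf markers 3 were tested, with summed signals of 3023 to 4506, 2598 to 4197 and 2768 to 5059 in the same order. Of these leaf genes PRK (0.12, limma adjusted p = 0.022) and LHCB4.1 (0.14, adjusted p = 0.039) were higher in FRI than in FRI flc-3 as means over days, and RCA did not pass (0.06, adjusted p = 0.24). None of 6 root markers and none of 4 epidermis markers was tested. The annotation table pairs 0 of the epidermis markers with a probe set of its own. It pairs 2 of the root markers, and these did not pass the filter on low signals. In FRI minus FRI flc-3, UFO, a floral meristem gene, differed by -1.17 on the log2 scale (limma adjusted p = 2.9e-05). Its mean signals were low, 2.26 in FRI and 8.38 in FRI flc-3, so the size of that difference depends on the offset. FD, the bZIP partner of FT, differed by -0.75 (limma adjusted p = 7.9e-10), while LAS, a meristem gene, did not pass (0.08, adjusted p = 0.56). The part of these markers in the differences of ARPN and AT2G45180 was not tested.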

How the data were processed

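Signals were measured in 36 apical samples on ATH1 arrays, 1 array per sample. The deposited intensity values are linear signals, 1 per probe set, that the authors computed with MAS5, according to the submitters' processing notes. The MAS5 version, its scaling target and the genome build are not given in the sources used here. The 2%-trimmed mean over all probe sets was 100.007 to 100.009 on the arrays, so no further scaling was applied. Each signal was transformed as log2 of signal plus 1.62, the offset being the 10th percentile over the whole table. From 22810 probe sets, 64 controls were left out, and 14912 were tested, whose signal exceeded the array's 40th percentile (19.8 to 24.8) on at least 3 arrays. limma 3.58.1 in R 4.3.3 fitted 1 mean per group of line and day over all arrays, with 24 residual degrees of freedom and an intensity trend. Tests were two-sided, with Benjamini-Hochberg adjustment over all tested probe sets and calls at an adjusted p under 0.05. The number of arrays limits the precision.

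Of 14016 probe sets in the annotation table, 13513 have 1 gene, 503 have several, and 13436 of those with 1 gene were matched to a TAIR10.1 locus. Probe sets without a name are given by identifier. Besides the members, the text names the 5 named genes and 2 unnamed probe sets most like each, the 3 least like, the named genes with the largest gaps and those just outside a gap of 0, and up to 4 genes of a list with the smallest adjusted p. Members and lists were chosen with earlier results of these data known. The procedure was tested on simulated data. No block was used, as most arrays were not most like those of their own replicate number. Alternatives were other offsets, scalings and filters, a replicate block, no trend, array weights, leaving out single arrays and fitting only the groups compared. Promoter sequences were not used here.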

Additional observations from a re-analysis of the deposited data

Results flagged for a closer look

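The day 7 response of AT2G45180 ran in opposite directions in the lines that share the Sf-2 FRI allele. Every FRI array of day 7 (217.3 to 244.3) lay below every FRI array of day 0 (395.3 to 400.0), whereas every FRI flc-3 array of day 7 (878.0 to 963.4) lay above every FRI flc-3 array of day 0 (616.0 to 641.4). Arrays of days 0 and 7 did not overlap for 39.4% of tested probe sets in FRI and 45.2% in FRI flc-3. The responses of AT2G45180 differed by -1.35 on the log2 scale, FRI minus FRI flc-3. This difference was not tested, since the gene was chosen by its levels in these lines.

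The day 7 response of AT2G45180 also differed between the lines that both carry the flc-3 allele, by 0.53 on the log2 scale, FRI flc-3 minus flc-3 (limma adjusted p = 0.00087). The signal rose in all 3 FRI flc-3 arrays above its day 0 arrays, and the flc-3 arrays of days 0 and 7 overlapped.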

How the results depend on the processing

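Of 30 tested values of the members, 17 were called. Over 11 other settings 4 of 330 values changed direction or call, and when each array was left out in turn 14 of 228 did. The calls gained or lost stand beside their results above, and the others, 1 and 6, were turns of sign in values near 0 that were not called. The change of AT2G45180 in flc-3 at day 7, 0.03, was -0.04 at a common 75th percentile and -0.01 to 0.06 with arrays left out. With arrays left out, ARPN in flc-3 at day 3 ran from -0.02 to 0.07, and AT2G45180 in FRI flc-3 minus flc-3 at day 3 from -0.07 to 0.04. The smallest log2 gap of ARPN was -0.02 after scaling to a common 75th percentile, and 0.005 to 0.085 when each array was left out. That scaling left 4 separating probe sets, without ARPN, and quantile normalization left 4, without 264339_at. At an offset of 64, the mean AT2G45180 difference was -0.96 for FRI minus FRI flc-3 and -0.92 for FRI minus flc-3. Likeness was less stable: of the 5 genes most like a member, 2 for ARPN and 2 for AT2G45180 stayed among the top 5 over group means, and 0 and 3 within lines. A fit with the replicate block changed no call of the members, and the day 7 change of AT2G45180 in FRI was -0.79 (limma adjusted p = 2.2e-11). Same-numbered arrays of different groups had deviations correlated from -0.15 to 0.36, against -0.24 to 0.15 for arrays of other numbers, with a median of 0 for both. Of 36 arrays, 13 were most like their own number. The promoter motif search was not run.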
